A study of Mus musculus with 3 samples.

Results

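The cells described here are 115 Flt3/Dntt cells among the 716 cells kept from a library of TCF-1-null progenitors of innate lymphoid cells (ILCs), out of 3355 kept cells in 3 libraries. They were chosen by measured counts of unique molecular identifiers (UMIs, counted transcript molecules). A member had at least 500 detected genes and at most 10% mitochondrial UMIs, and at least 1 UMI of Flt3 or Dntt. It had no Zbtb16 UMI, fewer than 3 UMIs of the class II genes Cd74, H2-Aa, H2-Ab1 and H2-Eb1 together, and fewer than 5 UMIs of the granule genes Elane, Mpo, Prtn3 and Ctsg together. The last 3 conditions are called the limits below. These 11 genes selected the cells, so their levels are descriptions and carry no test.

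The cells come from ILCpro_KO, bone marrow of Tcf7EGFPnull/- mice sorted as lineage-negative, Kit+, 2B4+, a4b7+ and Tcf7+. ILCpro_WT was sorted by the same gate from Tcf7EGFP/+ mice, so its cells carry the reporter on 1 allele and are not wild type at the locus. ALP are all-lymphoid progenitors of the same Tcf7EGFP/+ genotype, sorted as lineage-negative, Kit+, 2B4+, a4b7-, Flt3high and IL-7Ra+. All mice were on C57BL/6, ages and numbers of animals are not given in the sources used here, and each population is 1 library of 10x Chromium v2. With 1 library per group no test was possible, and every interval below is an exact 95% interval that covers counting error only. Levels are summed UMIs of a group of cells, given as CPM (the gene's UMIs scaled to a common total). Kept cells had a median of 5309 UMIs in ILCpro_KO, 2897 in ILCpro_WT and 4544 in ALP, and the 115 cells had a median of 4776. No barcode of a member occurred in another library.

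TCF-1, the product of Tcf7, is a DNA-binding factor that acts downstream of Notch in T cell progenitors and is required early in the ILC lineage. Early ILC progenitors arise from lymphoid progenitors that express Flt3, the receptor for Flt3 ligand, and Dntt, the enzyme that adds untemplated nucleotides at antigen receptor joints. On the way to ILCs these lymphoid genes are turned down while Id2, Nfil3, Tox and later Zbtb16 (PLZF) are turned on. Id2 blocks the E proteins that drive B and T cell development.

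The promoters of both genes that define the cells are shown for orientation, since loss of a DNA-binding factor separates 2 of the libraries. On GRCm38, Flt3 (ENSMUSG00000042817) lies at chr5:147330741-147400489 and Dntt (ENSMUSG00000025014) at chr19:41029275-41059525. Each line gives 300 bases, from 250 before to 50 after the start site, 5′ to 3′ on the coding strand, from RefSeq on GRCm38.p6. The Flt3 window is chr5:147400440-147400739 on the minus strand and the Dntt window is chr19:41029025-41029324 on the plus strand. Capitals mark E boxes (CANNTG), the motif that E proteins bind.
Flt3: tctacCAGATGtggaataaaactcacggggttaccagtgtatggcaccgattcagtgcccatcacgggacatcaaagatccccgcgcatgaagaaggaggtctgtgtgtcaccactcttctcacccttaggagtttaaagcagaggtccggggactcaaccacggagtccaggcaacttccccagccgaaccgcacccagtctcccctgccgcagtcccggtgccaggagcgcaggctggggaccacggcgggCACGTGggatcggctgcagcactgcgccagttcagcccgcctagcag
Dntt: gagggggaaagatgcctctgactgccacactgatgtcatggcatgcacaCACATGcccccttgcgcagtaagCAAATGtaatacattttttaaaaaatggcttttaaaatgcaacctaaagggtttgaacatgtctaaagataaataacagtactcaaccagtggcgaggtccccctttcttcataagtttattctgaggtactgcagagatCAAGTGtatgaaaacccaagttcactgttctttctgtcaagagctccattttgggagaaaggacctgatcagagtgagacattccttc
The Flt3 window holds 2 E boxes and the Dntt window 3. E boxes are common, since 72.3% of 32851 RefSeq promoter windows of this length hold at least 1 on either strand. Of the TCF/LEF motif only the form CTTTGAA was searched, on both strands. That form is in neither window and is in 5.14% of all windows. Other forms of the motif were not searched, so their absence is not shown. The printed Flt3 window does hold atcaaag, which is CTTTGAT on the other strand and differs from the searched form only in its last base. How common that sequence is among all windows was not counted. A match or its absence in these windows says nothing about binding.

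The rule was met by 115 of 716 ILCpro_KO cells, or 16.1% (95% interval 13.5 to 19.0), by 105 of 1829 ILCpro_WT cells, or 5.74% (4.72 to 6.91), and by 690 of 810 ALP cells, or 85.2% (82.6 to 87.6). After each cell was thinned to 2000 UMIs the shares were 10.6% of 700 ILCpro_KO cells, 4.29% of 1446 ILCpro_WT cells and 81.2% of 761 ALP cells. Thinned counts were used for Flt3 and Dntt alone, and the limits stayed at full depth. Thinning left out 16 ILCpro_KO, 383 ILCpro_WT and 49 ALP cells. Among cells inside the limits, Flt3 or Dntt was detected in 38.9% of ILCpro_KO cells (25.8% thinned), 12.4% of ILCpro_WT cells (9.75% thinned) and 97.2% of ALP cells (91.7% thinned). The order of the libraries was the same at both depths.

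**Figure D1:**
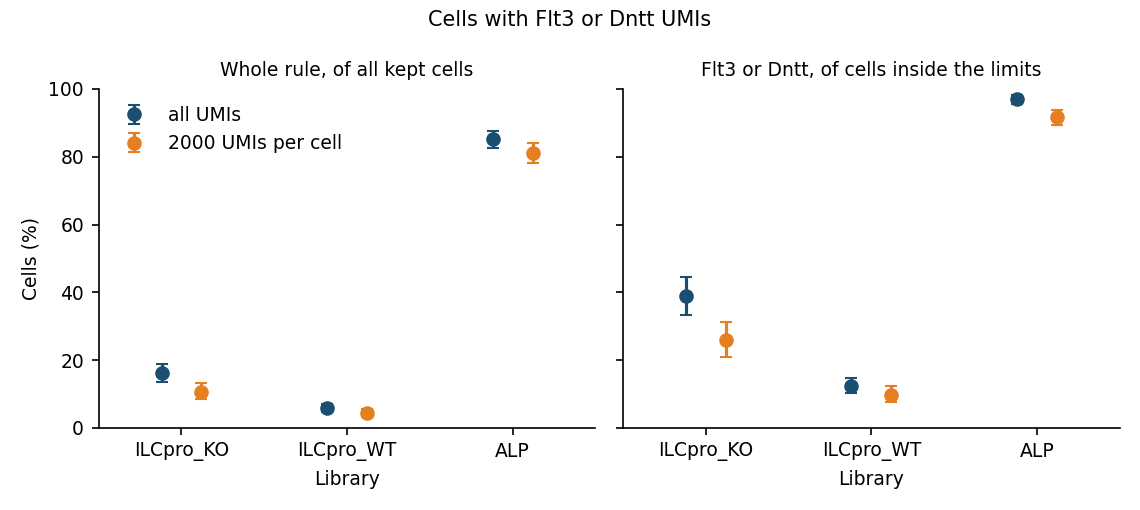
Percent of cells in each library that meet the whole rule (left) or, among cells inside the limits, have a UMI of Flt3 or Dntt (right). Bars are exact 95% binomial intervals for counting error. Colours separate all UMIs from Flt3 and Dntt counts of cells thinned to 2000 UMIs, with the limits at full depth in both. ILCpro_KO lies between 10.6% and 16.1% in the left panel, above ILCpro_WT and far below ALP.

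Tcf7, the targeted gene, had 57.3 CPM over all ILCpro_KO cells, 362 CPM over all ILCpro_WT cells and 1.46 CPM over all ALP cells. The 115 cells had 44 Tcf7 UMIs, or 73.6 CPM (53.5 to 98.8). The sources used here do not say which part of Tcf7 the null allele removes, so UMIs from a 3′ library do not check the deletion.

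Flt3 alone was detected in 51 of the 115 cells, Dntt alone in 41 and both in 23. The cells held 112 Flt3 UMIs and 165 Dntt UMIs, and 51 cells entered on a single UMI while 64 had at least 2. In the 46 ILCpro_KO cells with at least 50 granule UMIs, a comparison group picked after the data were seen, 5 had a Flt3 UMI (10.9%) and 1 a Dntt UMI at a median of 11688 UMIs, and after thinning to 2000 UMIs 1 had Flt3 and 0 had Dntt. In the 115 cells the thinned shares, which the rule itself raises, were 33.6% for Flt3 and 37.2% for Dntt. Whether a single UMI came from the cell or from free RNA was not tested for single cells, and having a UMI is not read as expression. Flt3 averaged 187 CPM in the 115 cells, 146 CPM in the ILCpro_WT cells of the same rule and 299.6 CPM in the ALP cells with Flt3 or Dntt. Dntt was at 276 CPM in the 115 cells, 277 CPM in those ILCpro_WT cells and 1512 CPM in those ALP cells. At the edges, 13 members had 4 granule UMIs while 3 ILCpro_KO cells with Flt3 or Dntt stood just outside with 5. For class II, 13 members had 2 UMIs, and 2 cells stood just outside with 3. A single Zbtb16 UMI kept out 15 cells. Of all 270 ILCpro_KO cells with Flt3 or Dntt, 106 were over the granule limit, 36 over the class II limit and 47 had Zbtb16.

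The 115 cells were not alike. In 16 cells the genes of the CD3 signalling chains Cd3d, Cd3e and Cd3g together had 9 to 38 UMIs per cell (median 16.5), 287 in all. The other 99 cells had 0 or 1. No cell lay between. All 16 were Dntt-alone cells and made up 39.0% of that class, and none had a Flt3 UMI. The 16 cells had a median of 3875 UMIs and 73725 UMIs in all, so that 3 UMIs there equal 40.7 CPM, and the other 99 had a median of 4841 UMIs. This division was made after the values were seen, so the levels on its sides are described without a count of genes over a threshold.

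**Figure D2:**
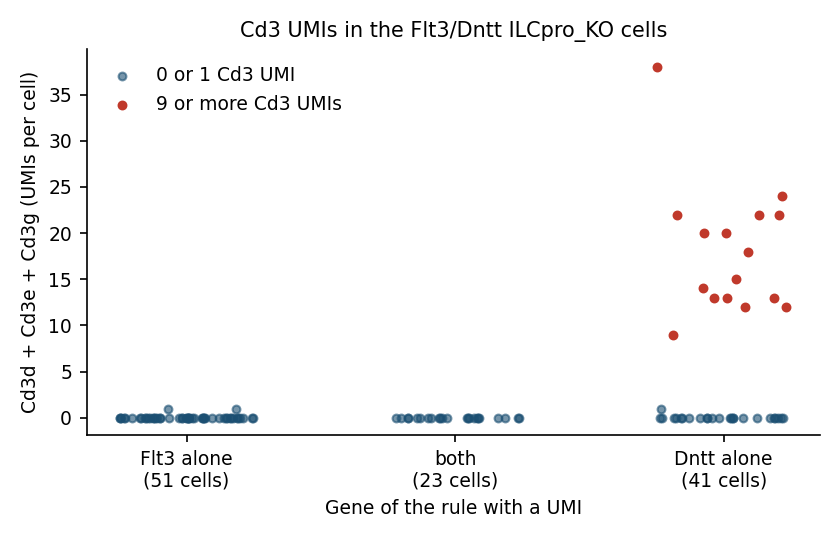
UMIs of Cd3d, Cd3e and Cd3g summed per cell (vertical axis) in the 115 Flt3/Dntt ILCpro_KO cells, 1 point per cell with sideways scatter, by which gene of the rule had a UMI. The red points are the 16 Dntt-alone cells with 9 to 38 UMIs, and every other cell has 0 or 1.

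The T lineage list holds 10 genes, of which Cd3d, Cd3e and Cd3g made the division, so their levels on its sides were fixed by it. The other 7 were also at higher levels in the 16 Cd3 cells than in the other 99. Lef1, a TCF-1 relative, had 1302 CPM in the Cd3 cells and 30.5 CPM in the other 99, 42.7-fold higher (24.97 to 77.6). Bcl11b, which fixes T lineage identity, had 44 UMIs in the Cd3 cells (597 CPM) and 0 in the other 99, at least 104-fold higher against a floor of 3 UMIs over that group. Gzma, a granzyme, had 96 UMIs (1302 CPM) and 0, at least 227-fold higher. Thy1, a T cell surface protein, had 556 CPM in the Cd3 cells and 11.5 CPM in the other 99. Ptcra, the pre-T cell receptor alpha chain, had 271 and 13.4 CPM in the same order, and Il2ra, the IL-2 receptor alpha chain, 176 and 1.91 CPM.

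Some genes of Notch signalling and those of the antigen receptor recombinase were also with the Cd3 cells. Notch1 had 366 CPM there and 34.4 CPM in the other 99 cells, 10.7-fold higher (5.66 to 20.6). Dtx1, a Notch target, had 16 UMIs in the Cd3 cells and 0 in the other 99. Notch2 went the other way, with 13.6 CPM in the Cd3 cells and 129.8 CPM in the other 99, 9.57-fold lower (1.66 to 383). Hes1, another Notch target, had 2 UMIs in the Cd3 cells and 1 in the other 99. All 7 Rag1 UMIs and both Rag2 UMIs of the 115 cells were in the Cd3 cells; these genes encode the recombinase that cuts antigen receptor genes. Il7r, the IL-7 receptor alpha chain, had 6 UMIs in the 16 Cd3 cells (81.4 CPM) and 2 in the other 99 (3.82 CPM).

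Of the genes of the sort, those of a4b7 and 2B4 were at or near 0 in the Cd3 cells. Itgb7, the beta chain of a4b7, had 0 UMIs in the Cd3 cells and 100 in the other 99 (191 CPM), at least 4.69-fold lower. Itga4, the alpha chain, had 27.1 CPM in the Cd3 cells and 706 CPM in the other 99, 26.0-fold lower (7.15 to 216). Cd244, which encodes 2B4, had 0 UMIs in the Cd3 cells and 120 CPM in the other 99. Kit had 1 UMI in the Cd3 cells and 12 in the other 99, too few to tell the groups apart. Tcf7 had 4 UMIs in the Cd3 cells (54.3 CPM) and 40 in the other 99 (76.3 CPM), with intervals that overlap. For a4b7 and 2B4 their RNA therefore goes against the surface phenotype in the label, and the absence of Flt3 UMIs goes against a name built on Flt3. How they entered the gate was not tested.

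Several ILC and progenitor genes were at 0 or low in the same cells, while other factors of the ILC list were higher there. Gata3, a factor of T cells and ILC2, had 231 CPM in the Cd3 cells and 66.8 CPM in the other 99, 3.45-fold higher (1.81 to 6.33). Ikzf2 (Helios) had 353 and 61.1 CPM, and Ets1, an ETS factor of lymphocytes, 353 and 1.91 CPM. Id2 had 122 CPM in the Cd3 cells and 607 CPM in the other 99. Runx3, a factor of cytotoxic and ILC lineages, had 0 UMIs in the Cd3 cells and 434 in the other 99, at least 20.4-fold lower. Nfil3, needed for early ILC progenitors, had 0 and 119 UMIs, and Mef2c, a lymphoid progenitor factor, 0 and 318. The stem and multipotent progenitor list, 13 genes that include Cd34, Erg and Hoxa7, had 0 UMIs in the Cd3 cells and 567 CPM in the other 99. Bcl2, which blocks apoptosis, had 40.7 CPM in the Cd3 cells and 1269 CPM in the other 99, 31.2-fold lower (10.6 to 152). Among the other cells of the library, 7 of the 446 without Flt3 and Dntt had at least 3 Cd3 UMIs, 5 of them 9 or more. No ILCpro_WT cell of the same rule and no ALP cell with Flt3 or Dntt had more than 1.

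The remaining 99 cells also varied with the gene that brought them in. Id2 had 909 CPM in the 51 Flt3-alone cells, 125 CPM in the 23 cells with both genes and 408.5 CPM in the 25 Dntt-alone cells without Cd3. Runx3 had 1014, 396 and 885 CPM in the same order of classes, and Bcl2 had 1502, 697 and 1381 CPM. The cells with both genes were thus lowest in all 3, yet still above the ALP cells, where Id2 had 11.1 CPM, Runx3 94.6 CPM and Bcl2 262 CPM. Their median depth was 5859 UMIs, against 5071 in the Flt3-alone cells and 3625 in the Dntt-alone cells without Cd3.

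Other genes followed a different order. Satb1, a chromatin organiser of early lymphoid cells, had 130 CPM in the Flt3-alone cells (91.4 to 179), 249 CPM in cells with both (173 to 349) and 321 CPM in Dntt-alone cells without Cd3 (221 to 451). Il12a, the p35 subunit of IL-12, had 94.8, 161 and 253 CPM in the same order. Hhex, a homeobox factor of lymphoid progenitors, had 49.1, 169 and 68.1 CPM. Ly6d, a marker of B-primed lymphoid progenitors, had 9 UMIs in the cells with both and 0 in either other class. All 63 UMIs of Bhlhe41, a repressor, were in 12 Flt3-alone cells, 19 of them in 1 cell. ILCpro_KO cells inside the limits without Flt3 and Dntt had 113 CPM of Bhlhe41 (91.6 to 138), beside 105 CPM in the 115 cells. Its RNA is therefore not particular to cells with Flt3. The classes are small and were picked on low counts, so an order between classes whose intervals overlap is not established.

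**Figure D3:**
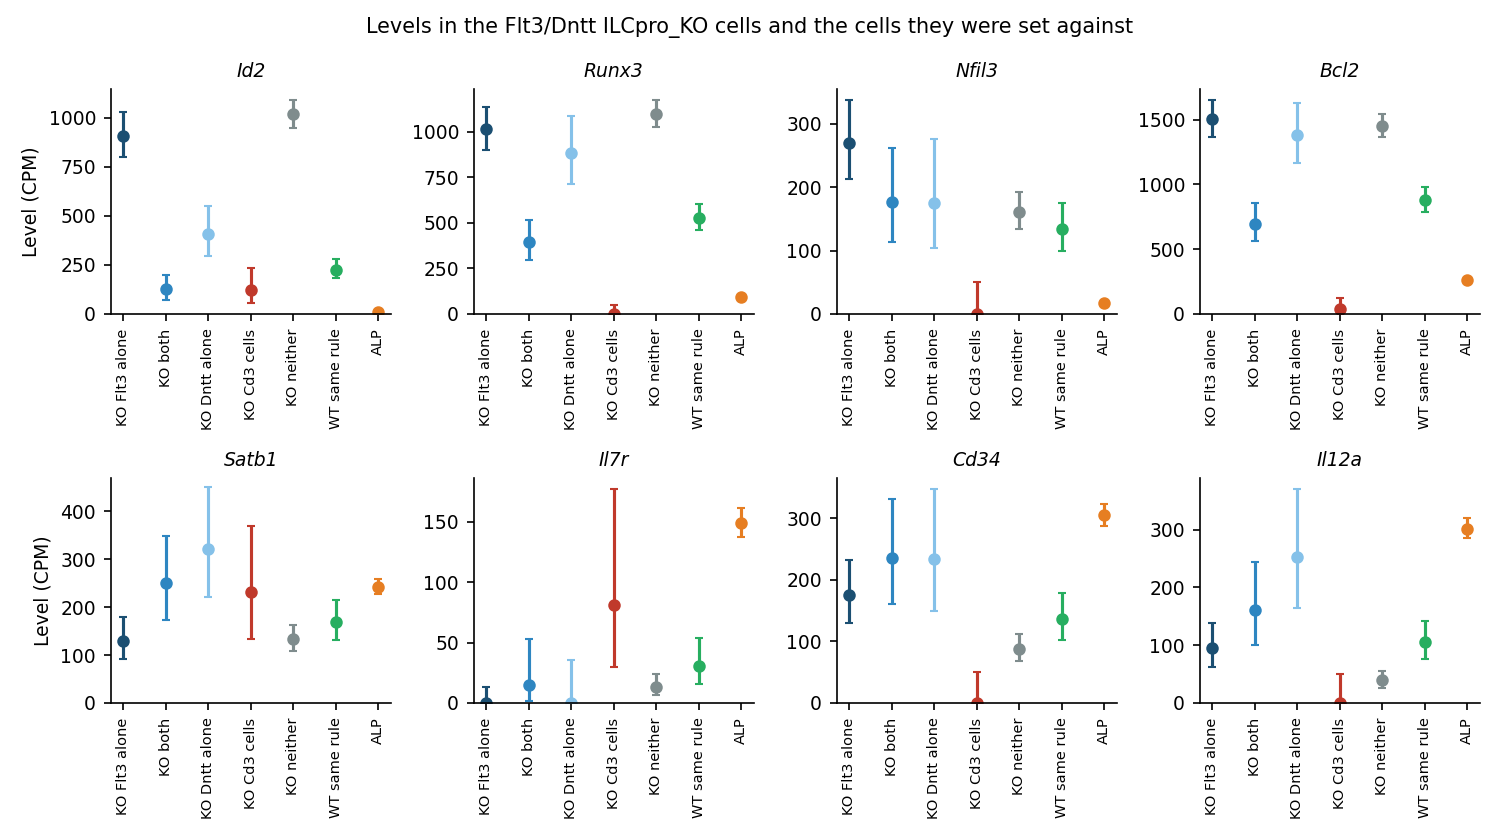
Level (CPM, summed UMIs, linear axes from 0) of 8 genes in the Flt3/Dntt ILCpro_KO cells by class (blue, and red for the 16 Cd3 cells), ILCpro_KO cells with neither gene after removal of Cd3, neutrophil and haemoglobin cells (grey), ILCpro_WT cells of the same rule (green) and ALP cells with Flt3 or Dntt (orange). Bars are exact 95% Poisson intervals; Id2 is lowest in ALP, Runx3 and Bcl2 are lowest in the Cd3 cells, and among the blue classes all 3 are lowest in the cells with both genes.

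The first comparison asks how the cells with a UMI of Flt3 or Dntt differ from ILCpro_KO cells that had neither. The limits apply to the members alone, and granulocyte and basophil genes were high among the 446 cells without Flt3 and Dntt. S100a8, a neutrophil protein, had 15.1 CPM in the 115 cells and 732 CPM in the 446, and Mcpt8, a basophil protease, 20.1 and 570.4 CPM. Prss34, another basophil protease, had 10.0 CPM in the 115 cells and 509.6 CPM in the 446. Genes tested are those with at least 20 CPM in either group, and a gene is counted when it differs at least 2-fold after 10 CPM is added to both levels. On this count 56 of 6170 genes were higher in the 115 cells (0.908% of genes) and 139 lower (2.25%). Folds without the added 10 CPM are given for single genes.

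Of the 12 genes highest in that comparison, Cd3d, Gzma, Lgals7, Cd3g, Arpp21, Endou, Uaca, Cd3e and Bcl11b were largely from the 16 Cd3 cells. Cd3d had 261 CPM in the 115 cells and 19.8 CPM in the 446, and 154 of its 156 UMIs in the 115 cells were in the Cd3 cells. Without cells of at least 3 Cd3 UMIs on either side, Cd3d, Gzma, Endou and Bcl11b had log2 ratios of -0.02, -0.11, -0.06 and -0.57, and 2 genes of the T lineage list, Lck and Lat, still reached the level measured in the later comparisons without Cd3 cells. The other 3 of the 12 were Il12a, with 0 of 75 UMIs in the Cd3 cells, Trp53inp1, with 8 of 45, and Xrcc6, with 35 of 71. Satb1 had 202 CPM in the 115 cells and 86.5 CPM in the 446, 2.34-fold higher (1.86 to 2.93), and it was 1 of 2 early lymphoid genes over 2-fold out of 8 measured. The other was Ly6d, with 17 of its 26 UMIs in the Cd3 cells. The list's median log2 ratio was 0.51, beside 0.02 over all genes tested.

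Setting the same limits on the cells without Flt3 and Dntt left 181 cells, and 60 of 6284 genes were then higher in the 115 cells (0.955%) and 123 lower (1.96%). In these 181 cells, 13 cells with at least 9 UMIs of S100a8, S100a9, Ngp, Camp, Ltf and Lyz2 held 4191 UMIs of those genes, and 1 cell held 1458 haemoglobin UMIs. The 12 highest were Cd3d, Arpp21, Cd3g, Endou, Uaca, Lgals7, Gzma, Bcl11b, Il12a, Xrcc6, Plek and Cd3e. Of the 12 lowest genes, S100a8, S100a9, Hbb-bs, Hba-a1, Ngp, Camp, Lyz2 and Hba-a2 belong to these families. Lcn2, Car1, Lgals3 and Wfdc21 complete the 12. S100a8 had 15.1 CPM in the 115 cells and 1490 CPM in the 181, and without those cells its log2 ratio was 0.52 and that of Lyz2 0.26. The values that follow therefore leave out cells with at least 3 Cd3 UMIs, at least 6 neutrophil UMIs or at least 10 haemoglobin UMIs from both sides, a step added after the data were seen. It drops the 16 Cd3 cells and 2 members with haemoglobin, and keeps 97 Flt3/Dntt cells and 160 cells without Flt3 and Dntt.

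Between the 97 and the 160 cells 44 of 6072 genes were higher in the 97 (0.725%) and 75 lower (1.24%). Il12a had 145.8 CPM in the Flt3/Dntt cells and 39.4 CPM in the cells without, 3.71-fold higher (2.40 to 5.86). Cd34, a sialomucin of early progenitors, had 198 CPM and 87.9 CPM, 2.26-fold higher (1.64 to 3.12). Hoxa7 and Erg, factors of stem and progenitor cells, had 37.0 and 23.3 CPM in the Flt3/Dntt cells, against 11.8 and 6.56 CPM in the cells without. These 3 are the members of the stem and multipotent progenitor list over 2-fold, of 7 measured, and the list's median log2 ratio was 0.41, beside 0.00 over all genes. Plek, a substrate of protein kinase C, had 60.3 and 13.1 CPM, and Etv6, an ETS repressor of stem cells, 75.8 and 30.2 CPM. The other genes among the 12 highest were Phkg2, Calcrl, Trp53inp1, Rnf168, Ociad2, Hist1h1b, Tmem57 and Nup214.

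The early lymphoid list stayed within 2-fold. None of 7 measured early lymphoid genes outside the rule passed 2-fold in either direction, with a median log2 ratio of 0.32. Satb1 had 200.3 CPM in the 97 Flt3/Dntt cells and 133.8 CPM in the 160 cells without, a ratio with an interval of 1.13 to 1.99. Mef2c had 611 and 487 CPM, 1.25-fold higher (1.08 to 1.46). Rag1 and Rag2 had 0 UMIs in both groups.

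ILC genes were lower in part. Ccl5, a chemokine of cytotoxic and ILC1 cells, had 109 CPM in the Flt3/Dntt cells and 447 CPM in the cells without, 4.11-fold lower (3.09 to 5.55). Rora, a nuclear receptor needed for ILC2, had 9.72 and 49.9 CPM, 5.13-fold lower (2.02 to 16.7). The surface genes Cd7 (62.2 and 137.8 CPM), Ltb (35.0 and 86.6 CPM) and Pdcd1 (13.6 and 38.1 CPM), the last encoding PD-1 of ILC precursors, were between 2.21-fold and 2.80-fold lower. In all, 2 of 10 measured ILC transcription factors and 4 of 11 ILC precursor surface and effector genes were at least 2-fold lower and none higher. Their median log2 ratios were -0.63 and -0.92.

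The leading ILC factors stayed within 2-fold. Id2 had 618 CPM in the 97 Flt3/Dntt cells and 1017 CPM in the 160 cells without, 1.64-fold lower (1.44 to 1.88). Runx3 was 1.33-fold lower, with 828 and 1099 CPM, and Tox 1.48-fold lower (1.14 to 1.94). Nfil3 was 1.42-fold higher (1.10 to 1.85), with 229.5 and 161 CPM. Tcf7 had 75.8 and 101 CPM, a difference whose interval includes no change. Car1, an erythroid carbonic anhydrase, had 0 and 103 UMIs, 46 of these in 1 cell. Other genes among the 12 lowest were Ifitm1, Apoe, Mt1, Vamp5, Ctsw, Ckb, Maf, Jun, Cd63 and Batf3, and in Apoe, Ifitm1 and Mt1 1 cell of the 160 held 24, 22 and 28 of 75, 78 and 46 UMIs.

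**Figure D4:**
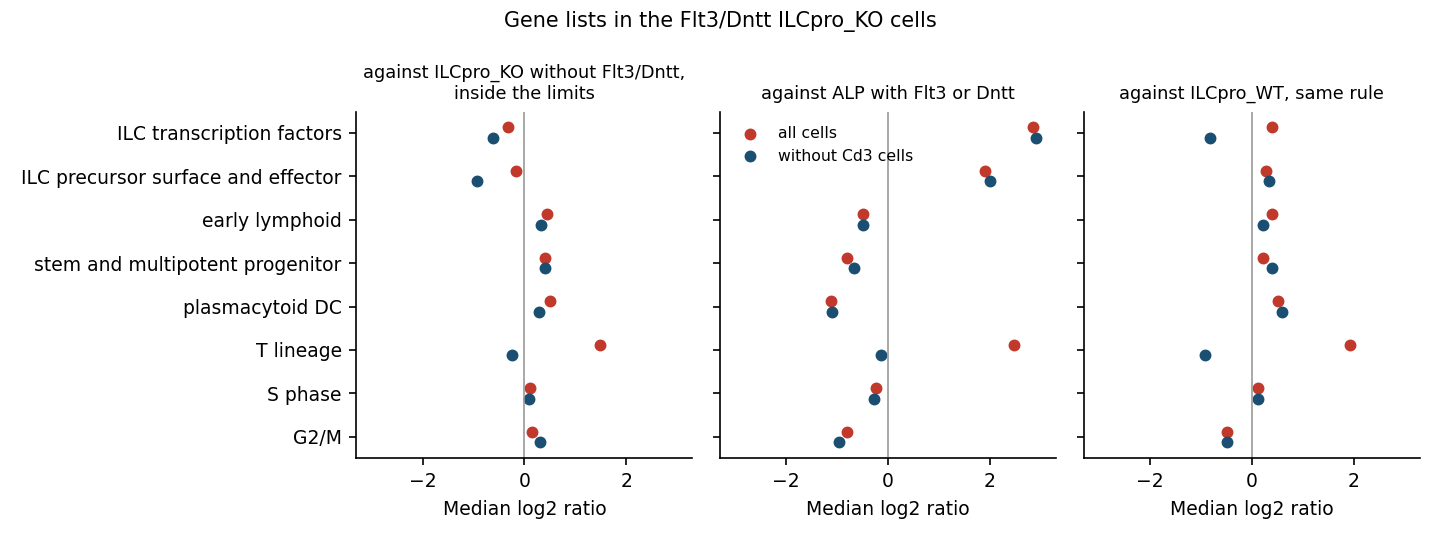
Median log2 ratio (10 CPM added) of 8 gene lists in the Flt3/Dntt ILCpro_KO cells over each group they were set against, with all 115 cells (red) and without the Cd3 cells (blue; in the left panel also without neutrophil and haemoglobin cells). The T lineage points move from the positive side with all 115 cells to negative values without the Cd3 cells in all 3 panels. Without the Cd3 cells the T lineage points rest on Lck and Lat alone, fewer genes than with all 115 cells. The ILC transcription factor list lies near 2.9 against ALP in both sets.

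The second comparison asks how far cells that share Flt3 or Dntt with lymphoid progenitors resemble them. Against the 766 ALP cells with Flt3 or Dntt, 132 of 6175 genes were higher in the 115 cells (2.14%) and 174 lower (2.82%). Against the 690 ALP cells inside the limits, 135 of 6182 genes were higher (2.18%) and 172 lower (2.78%). Without the Cd3 cells, which left 99, the counts were 125 (2.04%) and 198 (3.24%) of 6113 genes. The 12 highest in the full comparison included Cd3d, Lef1, Gzma, Cd3g, Cd3e, Lgals7, Bcl11b and Thy1, which are mainly from the Cd3 cells, beside Id2, Cpa3, Bhlhe41 and Nfil3. The values below are of the 99 cells, and the gate, the genotype and the library differ together from ALP.

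ILC transcription factors were high in the Flt3/Dntt ILCpro_KO cells and low in ALP. Id2 had 607 CPM in the 99 cells (542 to 677) and 11.1 CPM in the 766 ALP cells (8.09 to 15.0), 54.5-fold higher (39.7 to 76.5). Nfil3 had 227 and 16.5 CPM, 13.8-fold higher (10.1 to 19.0), and Tox, an HMG-box factor of ILC progenitors, 176 and 14.7 CPM. Runx3 had 828 and 94.6 CPM, 8.75-fold higher (7.604 to 10.1). Tcf7 had 76.3 and 1.52 CPM, Lef1 30.5 and 0.253 CPM, and Ikzf2 61.1 and 24.0 CPM. Of 9 measured factors on the list 7 were at least 2-fold higher and Ets1 was lower, with 1.91 and 49.3 CPM. The 7 include Tcf7, on which the ILCpro_KO cells were sorted. The list's median log2 ratio was 2.91, beside 0.03 over all genes.

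Id2 was detected in 65.7% of the 99 cells and in 5.35% of the 766 ALP cells, and at 2000 UMIs per cell in 54.1% and 2.18%. In the 46 granule-rich ILCpro_KO cells Id2 was detected in 37.0% at a median of 11688 UMIs and in 8.70% after thinning. The thinned share in the 99 cells was above that of the 46. Whether the 46 cells lack Id2 RNA of their own was not tested, so their share is not a measured background.

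Surface and effector genes of ILC precursors were on the same side, with 6 of 9 at least 2-fold higher in the 99 cells and none lower. Itgb7 had 191 and 21.5 CPM and Itga4 706 and 169 CPM in the 99 cells and ALP, both products being part of the sort. Il18r1, an IL-18 receptor chain, had 166 and 26.1 CPM. Ccl5 had 107 CPM in the 99 cells and 3.80 CPM in ALP, 28.2-fold higher (15.7 to 53.6). Cd7 had 63.0 and 7.34 CPM, and Il2rb, the IL-2 and IL-15 receptor beta chain, 32.4 and 0.759 CPM. Bcl2 had 1269 and 262 CPM, 4.85-fold higher (4.39 to 5.35), and Mycn, a MYC family factor, 156.5 and 17.0 CPM. Cpa3, a carboxypeptidase of mast cells and of early progenitors, had 69 UMIs in the 99 cells (132 CPM) and 1 in ALP, with a ratio of 520.4 that has an interval of 90.4 to 20848. Cpa3 also had 74.8 CPM in the 160 ILCpro_KO cells without Flt3 and Dntt and 136 CPM in the ILCpro_WT cells of the same rule. Its difference from ALP is therefore not particular to the 99 cells. Mcpt8, the other mast cell and basophil gene measured, had 21.0 CPM in the 99 cells and 3.54 CPM in ALP, and the part of such cells in the Cpa3 value was not tested. Ddit4 and Nfkb1 complete the 12 highest.

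Some lymphoid genes apart from Flt3 and Dntt were lower than in ALP. Il7r had 2 UMIs in the 99 cells (3.82 CPM) and 590 in the ALP cells (149 CPM), 39.1-fold lower (10.8 to 324), and its product is part of the ALP sort. Rag2 had 0 UMIs in the 99 cells and 31.6 CPM in ALP, at least 5.52-fold lower. Bcl11a, a lymphoid factor, was 2.15-fold lower (1.66 to 2.83). Satb1 had 198.5 and 242 CPM, with an interval of the ratio that just includes no change (0.996-fold to 1.51-fold lower). Mef2c had 607 and 813.5 CPM, and Cd27, a TNF receptor of lymphoid progenitors, 177.5 and 264 CPM. In total 3 of 10 early lymphoid genes were at least 2-fold lower and none higher. Notch1 had 34.4 CPM in the 99 cells and 113.6 CPM in ALP, 3.31-fold lower (2.07 to 5.63).

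Genes that mark plasmacytoid dendritic cells, which branch from Flt3-expressing progenitors, were lower in 5 of 7 measured cases. Cox6a2 had 51.5 CPM in the 99 cells and 398 CPM in the ALP cells, 7.73-fold lower (5.29 to 11.8). Tcf4, the E protein of these cells, had 134 and 297 CPM, Runx2 70.6 and 166 CPM, Bst2 103 and 228 CPM, and Siglech 1.91 and 24.3 CPM. Blnk, a B cell adaptor, had 7.63 and 49.6 CPM. The 12 lowest genes were Il7r, Klf3, Sdc1, Ifitm3, Arpp21, Cmah, Clec12a, Samsn1, Il6st, Cox6a2, Myl10 and Wfdc17. Sdc1 (syndecan-1) and Il6st (gp130) had 0 UMIs in the 99 cells, at least 13.0-fold and 10.6-fold lower.

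Of 7 measured E protein genes, Id genes and partners, Id2 was at least 2-fold higher in the 99 cells than in ALP, and Tcf4, given above, and Lmo2 were at least 2-fold lower. Lmo2, a partner of E proteins in stem and progenitor cells, had 55.3 and 162 CPM. The others were within 2-fold. Tcf3, which encodes E2A, had 101 CPM in the 99 cells and 123 CPM in ALP, and Tcf12, which encodes HEB, 57.3 and 46.1 CPM. Lyl1, a partner of E proteins in progenitors, had 143 and 194 CPM. Id1 and Id3 had 0 UMIs in the 99 cells and 3 and 2 UMIs in ALP, so no difference was detectable. Nkg7, a granule protein of cytotoxic cells, had 286 and 118 CPM, 2.43-fold higher (2.01 to 2.93), whereas Klrd1 (CD94) had 1.91 and 31.1 CPM. Batf3, a dendritic cell factor, had 12 UMIs in the 99 cells (22.9 CPM) and 0 in ALP. None of 7 ILC2 genes reached the level measured, and Il1r1 was the 1 gene of 9 in the ILC3 list that did.

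The levels of Cd34 and Il12a lay between those of the ILCpro_KO cells without Flt3 and Dntt and those of the ALP cells. Cd34 had 202 CPM in the 99 cells, 87.9 CPM in the 160 cells without Flt3 and Dntt and 305 CPM in ALP. Il12a had 143 CPM in the 99 cells, 39.4 CPM in the 160 and 302 CPM in ALP. Hoxa9, a stem and progenitor factor, had 32.4 CPM in the 99 cells and 98.4 CPM in ALP.

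Part of the mitotic genes were lower than in ALP. Of 18 genes of the G2/M list 8 were at least 2-fold lower in the 99 cells and none higher, and the list's median log2 ratio was -0.96. With all 115 cells it was 7 of 18 and a median of -0.80 against the 766 ALP cells, but 3 of 17 and a median of -0.70 against the 690 ALP cells inside the limits. Ube2c, of the anaphase-promoting complex pathway, had 107 CPM in the 99 cells and 281 CPM in ALP, and Ccna2, a cyclin, 19.1 and 82.0 CPM. None of 18 S phase genes passed 2-fold. By a phase call from both lists, 15.2% of the 99 cells (8.74 to 23.8) and 23.9% of the ALP cells (20.9 to 27.1) were called G2/M, with intervals that overlap.

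The third comparison sets the cells against those of the same gate and rule in ILCpro_WT and so asks what differs by genotype among cells with Flt3 or Dntt. The 105 ILCpro_WT cells had a median of 3350 UMIs and 389622 UMIs in all, fewer than the 115 cells, and genotype and library cannot be told apart. Of 6122 genes 196 were higher in the 115 cells (3.2%) and 78 lower (1.27%). Without the Cd3 cells 203 (3.37%) and 87 (1.44%) of 6026 genes were so, and the values below are of the 99 cells. In the full comparison 7 of the 12 highest genes were Cd3d, Gzma, Cd3g, Cd3e, Lgals7, Uaca and Endou, while Lef1, with 96 of its 112 UMIs in the Cd3 cells, Trp53inp1, Bhlhe41, Rgs10 and Gsr made up the rest. Igfbp4 (102 and 249 CPM) and Ninj1 (43.5 and 121 CPM) were lower in the 115 cells and among the 12 lowest with the genes named below.

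ILC factors differed in both directions. Tcf7 had 76.3 CPM in the 99 ILCpro_KO cells (54.5 to 104) and 200.2 CPM in the 105 ILCpro_WT cells (158 to 249.9), 2.62-fold lower (1.77 to 3.94). Rora had 9.54 and 71.9 CPM, 7.53-fold lower (2.87 to 24.98), Tox2, an HMG-box relative of Tox, 1.91 and 43.6 CPM, and Ets1 1.91 and 25.7 CPM. Id2 was higher, with 607 CPM in the ILCpro_KO cells and 226 CPM in the ILCpro_WT cells, 2.69-fold (2.12 to 3.44). Runx3 (828 and 529 CPM) and Nfil3 (227 and 133.5 CPM) were 1.57-fold and 1.70-fold higher. Lef1 had 16 and 3 UMIs, 3.97-fold higher (1.14 to 21.2). Of 11 measured factors 2 were at least 2-fold higher and 4 lower, a split without a common direction. The 4 lower include Tcf7, the targeted gene. The list's median log2 ratio was -0.82 beside 0.09 over all genes, whereas with all 115 cells it was 0.40.

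The genes farthest apart were outside the factor lists. Serpine2, a protease inhibitor, had 0 UMIs in the 99 ILCpro_KO cells and 35 in the ILCpro_WT cells, at least 15.7-fold lower, and Fgf3, a growth factor, 0 and 27 UMIs, at least 12.1-fold lower. Hmga2, a chromatin protein, had 3 and 21 UMIs. Kit, part of the gate, had 22.9 and 59.0 CPM, 2.58-fold lower (1.23 to 5.69), and Il7r had 3.82 and 30.8 CPM, 8.07-fold lower (1.80 to 74.2). Ccl5 was 2.14-fold lower (1.51 to 3.04). The 12 lowest also held Ckap2l, Lat, Arpp21, Anxa2, Mcat, Epc1 and Ube2c.

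Cytokine receptor genes differed in both directions, with 2 of 10 at least 2-fold higher (Il18r1 and Il1r1) and 2 lower (Kit and Il7r), at a median log2 ratio of 0.41. Of 3 measured Notch genes Notch2 was at least 2-fold higher, while Notch1 had 34.4 CPM in the 99 cells and 53.9 CPM in the ILCpro_WT cells, with overlapping intervals. Il18r1 had 166 and 69.3 CPM, Il1r1, the IL-1 receptor, 34.4 and 10.3 CPM, and Notch2 129.8 and 59.0 CPM, 2.20-fold higher (1.35 to 3.70). Tcf4 was over 2-fold higher as well, while Tcf3 had 101 and 123 CPM. Bcl2 had 1269 CPM in the 99 cells and 878 CPM in the ILCpro_WT cells.

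Among the higher genes Bhlhe41 had 120 CPM in the 99 cells, from 12 cells as described above, and 7.70 CPM in the ILCpro_WT cells. The 160 ILCpro_KO cells without Flt3 and Dntt had a like level of Bhlhe41, 123 CPM. Trp53inp1, a p53 target, had 37 UMIs (70.6 CPM) and 1 UMI (2.57 CPM), and Cd53, a tetraspanin, 221 and 56.5 CPM. Bcl2l11, the pro-apoptotic BIM, had 15 and 1 UMIs, and the immediate early genes Fos and Ier2 had 36.3 and 89.7 CPM in the 99 cells, against 7.70 and 28.2 CPM in the ILCpro_WT cells. Kmo, S100a4, Rgs18, Spry2, Rars, B4galt1, Chmp2b and Atp6v1h complete the 12 highest with Id2. Of 8 measured early lymphoid genes 1, Il7r, was at least 2-fold lower and none higher, with a median log2 ratio of 0.22. Mef2c had 607 CPM in the ILCpro_KO cells (542 to 677) and 370 CPM in the ILCpro_WT cells (312 to 435), 1.64-fold higher (1.34 to 2.01). Satb1 had 198.5 CPM in the ILCpro_KO cells and 169 CPM in the ILCpro_WT cells, and Il12a 143 and 105 CPM, with intervals that overlap in both.

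Within ILCpro_WT the same division can be made inside the limits, between the 105 cells with Flt3 or Dntt and 740 cells without. Of 5789 genes 52 were higher in the 105 (0.898%) and 117 lower (2.02%). There 8 of 12 measured ILC transcription factors were at least 2-fold lower in the cells with Flt3 or Dntt, where the count for ILCpro_KO was 2 of 10 in the cleaned comparison. Id2 had 226 CPM in the 105 ILCpro_WT cells and 640 CPM in the 740, 2.83-fold lower (2.28 to 3.55). In ILCpro_KO it was 1.64-fold lower in the cleaned comparison, with 547 CPM in the 115 cells and 961 CPM in the 181 before cleaning. Tox2 had 43.6 and 144 CPM in ILCpro_WT and Rora 71.9 and 329.7 CPM. Il12a was 3.27-fold higher (2.167 to 4.87) in the ILCpro_WT cells with Flt3 or Dntt, and 3.71-fold higher in the cleaned ILCpro_KO comparison. The difference between the genotypes in these contrasts was not tested.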

How the data were processed

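The authors deposited filtered matrices of raw UMI counts per gene and cell barcode, 1 each for ILCpro_KO, ILCpro_WT and ALP, from 3′ tag libraries of 10x Chromium v2. Cell Ranger 2.0.1, STAR 2.5.1b, bcl2fastq 2.17 and the mm10 build are listed, without their roles, per the submitters' processing notes. From these counts, cells with at least 500 genes and at most 10% mitochondrial UMIs were kept. The UMIs of each group of cells were summed and scaled to CPM, and log2 ratios were taken with 10 CPM added, for genes of at least 20 CPM in either group. CPM have exact Poisson intervals, ratios exact conditional binomial intervals and shares exact Clopper-Pearson intervals, all at 95% and for counting error only. With 1 library per group there are no replicates, so no p-values are given. "At least" folds of genes at 0 in a group set that group to a floor of 3 UMIs. They leave out the counting error of the other group, and the exact interval can start lower. Shares across libraries were also taken after thinning every cell to 2000 UMIs without replacement, with the limits kept at full depth. Doublets were kept, and the highest Scrublet scores, at 0.8% per 1000 barcodes, were removed as an alternative, which took 4 ILCpro_KO cells (1 of them a member), 27 ILCpro_WT cells and 5 ALP cells. Libraries shared at most 4 barcodes.

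The 115 members and the 26 gene lists were chosen with earlier results of these data known. Named genes are the 12 highest and 12 lowest ratios of each comparison among genes of at least 50 CPM in the higher group, with gene models, sex-linked, mitochondrial and ribosomal protein genes and the 11 rule genes left out, plus Tcf7 and list members. The division by Cd3 and the removal of Cd3, neutrophil and haemoglobin cells were chosen after the data were seen. The ratio and interval code was tested on simulated counts with known folds. Python 3.11.15, numpy 2.4.6, scipy 1.17.1, pandas 2.3.3 and scanpy 1.11.5 were used. Some list members are not reported here.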

Additional observations from a re-analysis of the deposited data

Results flagged for a closer look

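Bcl11b, a T lineage factor also used by ILC progenitors, was higher in cells with Flt3 or Dntt in ILCpro_KO and lower in ILCpro_WT. In ILCpro_KO this rested on the Cd3 cells, which had no Flt3 UMI. Inside the limits, its log2 ratio of cells with Flt3 or Dntt over cells with neither was 1.648 in ILCpro_KO and -1.986 in ILCpro_WT, with 1 library each, and the difference was not tested. All 44 Bcl11b UMIs of the ILCpro_KO members were in the 16 Cd3 cells, and the other 99 members had 0. The 181 ILCpro_KO cells without Flt3 and Dntt had 14 Bcl11b UMIs. The 160 of them left after removal of Cd3, neutrophil and haemoglobin cells had 0. After that removal Bcl11b therefore has no direction in ILCpro_KO.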

How the results depend on the processing

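The share of genes at least 2-fold apart was 3.16% against all ILCpro_KO cells without Flt3 and Dntt, 2.91% against those inside the limits, 4.96% against ALP, 4.97% against ALP inside the limits and 4.48% against ILCpro_WT. With 1 CPM added in place of 10 these were 6%, 7.37%, 9.31%, 9.17% and 11%, and with 50 CPM added 0.972%, 0.605%, 1.13%, 1.18% and 0.343%. In G1 cells they were 8.08%, 10.6%, 11.7%, 12.1% and 21.1%, in smaller groups of cells. With Dntt alone counted they were 6.01%, 5.94%, 7.49%, 7.45% and 11%. Flt3 alone counted gave 10% against ILCpro_WT. With at least 2 UMIs of Flt3 and Dntt the shares were 4.84% against ILCpro_KO cells inside the limits and 15.4% against ILCpro_WT. Thinning before Flt3 and Dntt were counted gave 7.83% against ALP, 7.45% against ALP inside the limits and 9.91% against ILCpro_WT. A minimum of 100 CPM gave 2.14% against ILCpro_WT. The share of ILCpro_KO cells that met the rule was 16.1%, but 10.6% thinned, 8.94% with at least 2 UMIs and 37.7% without the limits.

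Among differences of at least 2-fold, directions turned mainly with the place of the Cd3 cells. With Flt3 alone counted the 16 Cd3 cells, which had Dntt alone, moved into the cells without, and log2 ratios against all ILCpro_KO cells without Flt3 and Dntt were -2.776 for Cd3d, -2.498 for Gzma, -1.403 for Lgals7, -1.311 for Endou, -0.535 for Arpp21 and -1.813 for Bcl11b, and the T lineage median was -1.829. Inside the limits Cd3d was -4.063 and the T lineage median -2.746, and that median was -0.474 against ALP and -0.254 against ILCpro_WT. Without the Cd3 cells Cd3d was -0.018, Gzma -0.111, Endou -0.056 and Bcl11b -0.565 against all such cells, and inside the limits Cd3d was -0.222. The T lineage median was then -0.155 inside the limits, -0.136 against ALP and -0.920 against ILCpro_WT. Against ALP and ILCpro_WT it rests on Lck and Lat alone, fewer genes than with the Cd3 cells. With neutrophil and haemoglobin cells also removed, Cd3d was -0.135, S100a8 and Lyz2 turned to 0.520 and 0.261, and the T lineage median -0.244. With Dntt alone counted Bhlhe41 was -0.075 against ALP and -0.489 against ILCpro_WT, since its UMIs were in Flt3-alone cells. Of the other values recomputed for single genes, 959 stayed close to the reported value and 144 moved. A minimum of 5 CPM or of 100 CPM cannot change the ratio of a single gene. The 85 values under each of these settings were therefore fixed in advance and show no stability. Of the other list medians 260 stayed close and 103 moved. Close means inside a range set by the outer limits of both groups' counting intervals, which is wide at low counts. A change of sign in a difference below 2-fold was not counted as a turn, so such changes may be among these values. No paired analysis was possible because each group is 1 library. The 16 Cd3 cells hold 73725 UMIs, so the floor of 3 UMIs there is 40.7 CPM, and a count of 0 has an exact upper limit of 50.04 CPM.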

Other observations

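The ILCpro_KO cells with Flt3 or Dntt outside the limits numbered 155 and were deeper, with a median of 7424 UMIs against 4776 in the 115 members. With ILCpro_KO cells divided by UMIs per cell into 3 equal parts, the rule was met by 18.8% of the shallowest, 18.5% of the middle and 10.9% of the deepest cells. In ILCpro_WT the same shares were 4.59%, 4.90% and 7.74%. Dntt had 41 UMIs in the 16 Cd3 cells (556 CPM) and 124 in the other 99 members (237 CPM). Members called G1 were 45.2% of the 115 cells (35.9 to 54.8), against 45.1% of the 446 ILCpro_KO cells without Flt3 and Dntt (40.4 to 49.8).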
